A study of Arabidopsis thaliana with 12 samples.

Results

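Cytosolic ribosomal protein genes were taken from the count table by a list of 58 gene identifiers of Arabidopsis thaliana, all annotated as proteins of the small (40S) or large (60S) subunit of the cytosolic ribosome. Of these, 57 were analysed among the 13307 genes of the table, 22 of the 40S and 35 of the 60S subunit, and 1 gene of the RPL10 family, AT1G26910, was not analysed here. The 57 genes fell into 37 protein families. In 18 families 1 gene was listed, and the other 39 genes formed 21 pairs of paralogs in 19 families.

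The libraries were made from whole wild-type Col-0 seedlings, 2 weeks old, that had been held for 2 h in light of 30 µE in Rose Bengal (RB) at 0, 10, 100 or 400 µM, with 3 libraries per dose. RB is a dye that produces singlet oxygen when it absorbs light, and the 0 µM seedlings shared the genotype, age, light and incubation time of the treated ones. The study set transcriptomes under singlet oxygen beside those of seedlings in which cytosolic translation is blocked. RB is the treatment in the labels of these samples, which were followed here, although the data list of the study gives DCMU, an inhibitor of photosynthesis, for the same series. For RNA extraction the study describes pools of whole seedlings as biological replicates, 3 per treatment. Nothing states that the 3 libraries of a dose came from separate cultures, so that p-values measure the spread between these libraries, which may in part be technical.

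Each cytosolic ribosome holds a single copy of most of its proteins, and plants usually keep several expressed genes for each of them. Ribosomal protein mRNAs are abundant, are highest in dividing and growing tissue, and in plants many of their promoters carry the telo-box and the site II element, short motifs also found in other genes of growth and translation. Paralogs of a family encode nearly the same protein but can differ in where and how strongly they are transcribed.

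Expression was measured by MARS-seq, which counts the 3′ ends of polyadenylated RNA. Library totals ran from 1499791 to 3608636 reads. Levels are given in CPM, that is reads scaled to a common library total, with TMM factors that align libraries on the bulk of their genes. Since 1 tag is counted per molecule end and not along its length, CPM was not divided by gene length, and a CPM is a share of the reads. Molecular identifiers were not used in the counting, so that reads can include PCR copies. Over the 6904 genes that averaged 10 CPM or more, the SD of the log2 distance of a library from the other libraries of its dose was 0.56 in RB 100 µM replicate 1, and it was 0.43 in replicate 1 of 10 µM, 0.39 in replicate 2 of 400 µM and 0.30 to 0.32 in the untreated libraries. RB 100 µM replicates 2 and 3 were at 0.46 and 0.43. The summed level of 6 root markers ranged from 136 to 209 CPM in untreated libraries and from 58.0 to 72.7 CPM at 400 µM, with 5 of the 6 called lower there by edgeR, and the part of root RNA in the results below was not tested. Of 13 green tissue markers edgeR called 4 lower at 100 µM, and 2 lower and 1 higher at 400 µM. Among all genes 4.22% were called lower at 100 µM, and 6.43% lower and 9.11% higher at 400 µM. The 5 measured markers of dividing cells summed to 9.31 to 24.7 CPM over all 12 libraries, with 0 called by edgeR or DESeq2 at any dose and 0 at an unadjusted p below 0.05.

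The promoters of the genes on which the results turn are shown first. Each stretch runs from 250 bases before to 50 bases after the annotated start of the gene, was read from the RefSeq genome (TAIR10.1) and is written 5′ to 3′ on the strand of the gene. Capitals mark the telo-box AAACCCTA and the site II elements TGGGCC and TGGGCT, each searched on both strands, and neither motif contains the other. The tandem RPL9 genes PGY2 (chr1:12022975-12023274, + strand) and AT1G33120 (chr1:12010629-12010928, + strand) are a pair whose levels deviated together. The RPL5 genes ATL5 (chr3:9271416-9271715, - strand) and RPL5B (chr5:15903029-15903328, + strand) are a pair in which 1 gene varied between libraries and the other did so less. The RPL14 gene AT4G27090 (chr4:13595203-13595502, - strand) departed furthest in a single library, and the RPP1 gene AT1G01100 (chr1:51161-51460, - strand) was called higher at both upper doses.
PGY2: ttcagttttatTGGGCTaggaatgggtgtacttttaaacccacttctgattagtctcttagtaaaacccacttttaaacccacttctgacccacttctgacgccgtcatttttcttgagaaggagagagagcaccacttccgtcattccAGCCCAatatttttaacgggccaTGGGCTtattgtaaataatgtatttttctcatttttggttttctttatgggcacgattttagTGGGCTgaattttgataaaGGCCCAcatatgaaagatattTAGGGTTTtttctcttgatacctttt
AT1G33120: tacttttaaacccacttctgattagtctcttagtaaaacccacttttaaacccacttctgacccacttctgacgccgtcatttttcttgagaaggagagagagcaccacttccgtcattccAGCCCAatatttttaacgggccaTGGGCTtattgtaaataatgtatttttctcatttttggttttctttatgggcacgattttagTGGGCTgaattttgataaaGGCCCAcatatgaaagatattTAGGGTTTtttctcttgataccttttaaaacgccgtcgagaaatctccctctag
ATL5: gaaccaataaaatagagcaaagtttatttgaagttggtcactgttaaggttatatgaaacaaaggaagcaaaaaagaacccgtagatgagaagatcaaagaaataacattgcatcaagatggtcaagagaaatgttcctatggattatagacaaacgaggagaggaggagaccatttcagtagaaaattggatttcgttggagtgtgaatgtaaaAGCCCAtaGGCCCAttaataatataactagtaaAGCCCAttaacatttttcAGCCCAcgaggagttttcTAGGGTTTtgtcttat
RPL5B: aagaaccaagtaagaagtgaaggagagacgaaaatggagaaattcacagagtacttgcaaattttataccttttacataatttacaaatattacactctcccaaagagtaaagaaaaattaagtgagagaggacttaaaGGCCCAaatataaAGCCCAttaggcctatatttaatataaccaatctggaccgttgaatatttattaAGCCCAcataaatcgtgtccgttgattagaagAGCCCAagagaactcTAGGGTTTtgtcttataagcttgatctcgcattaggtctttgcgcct
AT4G27090: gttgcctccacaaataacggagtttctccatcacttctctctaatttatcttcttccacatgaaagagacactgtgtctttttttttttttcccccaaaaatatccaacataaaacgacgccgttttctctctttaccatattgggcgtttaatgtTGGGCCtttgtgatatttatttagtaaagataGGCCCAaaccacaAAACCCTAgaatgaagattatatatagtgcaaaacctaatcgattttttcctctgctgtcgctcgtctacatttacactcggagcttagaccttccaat
AT1G01100: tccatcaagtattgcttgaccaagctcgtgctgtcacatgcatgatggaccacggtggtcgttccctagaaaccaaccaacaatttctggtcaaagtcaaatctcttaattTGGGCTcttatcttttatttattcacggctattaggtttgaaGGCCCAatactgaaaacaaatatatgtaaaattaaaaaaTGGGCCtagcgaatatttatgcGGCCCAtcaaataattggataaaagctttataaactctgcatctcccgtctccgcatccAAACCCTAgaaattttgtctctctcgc

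The telo-box was found in 28 of 57 member promoters (49.1%) and in 6.22% of 27443 protein-coding genes, and site II in 45 of 57 (78.9%) against 21.7%. Both motifs together were in 23 of 57 (40.4%) against 2.20%. The promoters of PGY2 and AT1G33120 shared an unbroken run of 272 bases, although 10677 bases lie between the 2 genes, and the longest run shared by any other pair was 20 bases, in RPP0. Their coding sequences were identical at 99.1% of positions, against 70.4% to 92.7% in the other pairs. In the last 500 bases of their transcripts, where the tags fall, 26 of the 441 windows of 60 bases in PGY2 (5.90%) occurred again elsewhere in the genome, and 0 of 441 in AT1G33120. Whether those second copies are transcribed was not determined. The counting of the authors could still have split reads between the 2 genes, so that their single values are less certain than their sum. A motif match describes these letters and is not a measured binding site.

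Ribosomal protein mRNAs were abundant and took a nearly constant share of the reads. The 57 genes together held 2.22% to 2.71% of the reads of a library, and the ranges of the 4 doses overlapped. Of the 57 genes, 34 had a mean of at least 100 CPM, 15 lay between 10 and 100 CPM and 8 lay below 10 CPM. Among the highest in untreated seedlings were emb2386 (RPL19, a 60S protein named for its embryo-lethal mutant) and AT5G15200 (RPS9, near the mRNA entry of the 40S subunit). The level of emb2386 was 1722, 1579.6 and 1583 CPM in the untreated libraries, 1482, 1826 and 1567 at 10 µM, 1709.9, 1974 and 2229.9 at 100 µM and 1988, 2064 and 2046 at 400 µM. The lowest 3 were RPL23AB, AT1G34030 (RPS18) and AT3G59540 (RPL38), with means of 1.53, 1.63 and 2.04 CPM. In whole seedlings a lower level cannot be told apart from fewer cells that express the gene.

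Between libraries of a dose most members were steady and a few were not. Among the 49 members that averaged 10 CPM or more, the SD of log2 CPM within a dose had a median of 0.14 in untreated libraries (0.18 over all genes of that level), 0.23 at 10 µM (0.21), 0.29 at 100 µM (0.24) and 0.12 at 400 µM (0.20). The largest SD within any dose exceeded 1 in 9 of the 49 (18.4%), against 3.55% of all 6904 genes. The proposal of these genes already rested on some members varying in this way, so that the share is a description. The mean behind the limit of 10 CPM includes the high libraries, and AT2G37600 passed it only through 65.2 CPM in RB 10 µM replicate 1. The 9 genes were AT1G33120, AT4G27090, AT4G14320, AT2G37600, AT2G44120, RPL23AA, PGY2, AT5G02960 and RPL5B, with largest SDs of 2.81, 2.66, 2.54, 1.804, 1.73, 1.65, 1.65, 1.52 and 1.32. RPL5B was just inside the split and RPS15A, at 0.88, just outside.

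**Figure D1:**
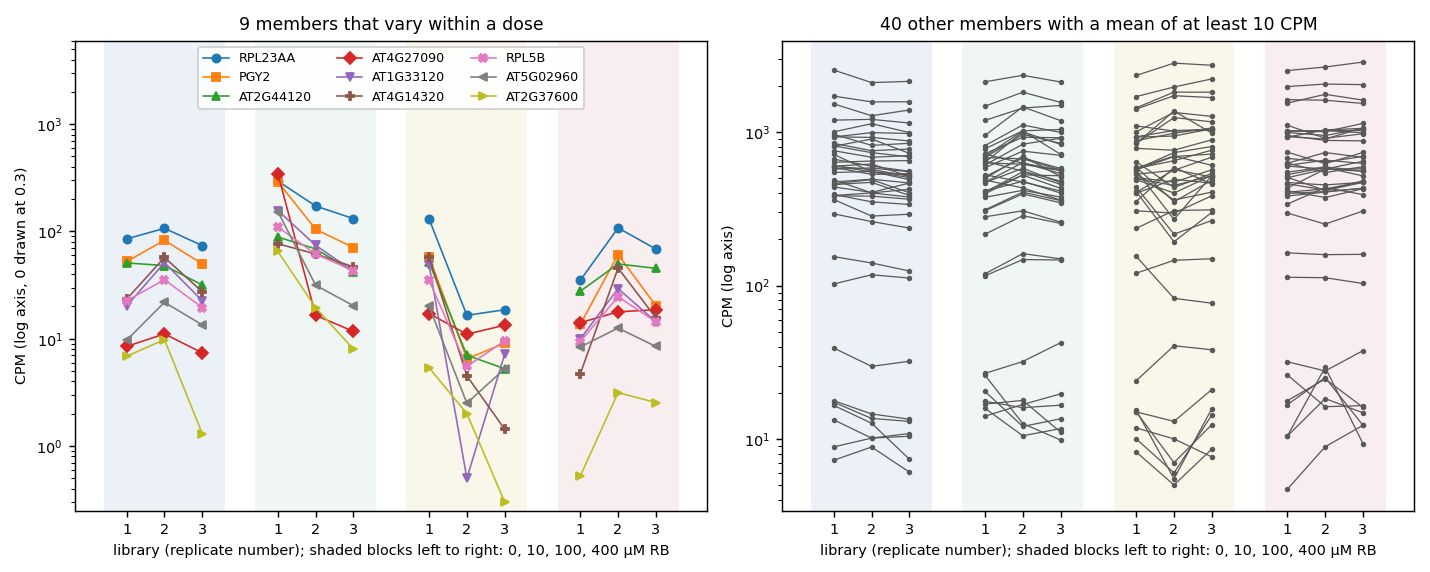
CPM of ribosomal protein genes in each of the 12 libraries (log axis, x axis the 3 replicates of each dose in shaded blocks), at left the 9 members with an SD of log2 CPM above 1 within a dose and at right the other 40 averaging 10 CPM or more. Most lines at left rise and fall together, high within their dose in RB 10 µM replicate 1 and RB 100 µM replicate 1, while those at right stay nearly level. The line of AT4G27090 stands out in RB 10 µM replicate 1 only.

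RPL9, a 60S protein, gave the clearest example. PGY2, named after the PIGGYBACK mutants with altered leaves, read 52.5, 82.6 and 49.9 CPM in the untreated libraries, 291, 105 and 70.7 at 10 µM, 57.95, 6.51 and 9.07 at 100 µM and 13.6, 60.8 and 20.3 at 400 µM. Its tandem copy AT1G33120 read 20.2, 51.3 and 22.6 CPM in the untreated libraries, 157, 74.2 and 42.4 at 10 µM, 48.6, 0.501 and 7.16 at 100 µM and 9.93, 29.3 and 14.4 at 400 µM. Both genes were highest in RB 10 µM replicate 1 and, within the 100 µM dose, in replicate 1, where PGY2 had 162 reads against 13 and 19 in the other libraries. The largest SD of AT1G33120 was that at 100 µM, where replicate 2 held a single read of it.

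**Figure D2:**
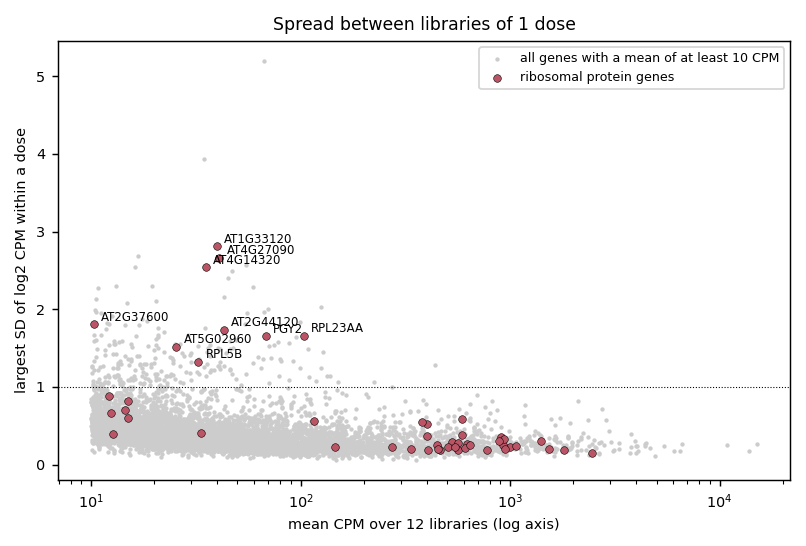
Largest SD of log2 CPM within a dose (y axis) against mean CPM (x axis, log scale) for all genes averaging 10 CPM or more (grey) and for the 49 ribosomal protein genes (coloured). Of the 34 members with a mean of at least 100 CPM only RPL23AA, at 104 CPM, lies above an SD of 1, and the other 8 of the 9 lie between 10 and 100 CPM. RPL23AA and AT2G37600 pass the limits of 100 and 10 CPM only through RB 10 µM replicate 1, at 295 and 65.2 CPM.

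Further 60S proteins were also highest in replicate 1 within the 10 µM and within the 100 µM dose. RPL23AA, a protein at the exit of the peptide tunnel, read 85.2, 107 and 73.8 CPM in the untreated libraries, 295, 173 and 132 at 10 µM, 131, 16.5 and 18.6 at 100 µM and 35.02, 108 and 68.6 at 400 µM. AT4G14320 (RPL36a, at the site where tRNA leaves) read 23.4, 57.3 and 27.4 CPM in the untreated libraries, 76.8, 61.6 and 46.8 at 10 µM, 57.95, 4.51 and 1.43 at 100 µM and 4.70, 45.6 and 15.7 at 400 µM. In both genes RB 100 µM replicate 1 lay above every untreated library while replicates 2 and 3 lay below all of them. AT2G44120 (RPL7) read 50.9, 48.1 and 31.7 CPM in the untreated libraries, 88.8, 68.7 and 41.8 at 10 µM, 51.5, 7.01 and 5.25 at 100 µM and 27.7, 49.8 and 45.3 at 400 µM, and its highest value was in RB 10 µM replicate 1.

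The RPL14 gene AT4G27090 (chr4:13593844-13595252) departed from this pattern in size. It read 8.48, 11.1 and 7.38 CPM in the untreated libraries, 345, 16.5 and 11.7 at 10 µM, 17.2, 11.02 and 13.4 at 100 µM and 14.1, 17.8 and 18.6 at 400 µM. A single library, RB 10 µM replicate 1 with 980 reads, stood at 345 CPM, and the other 11 libraries lay between 7.38 and 18.6 CPM. AT2G37600 (RPL36, 60S) read 6.86, 9.81 and 1.30 CPM in the untreated libraries, 65.2, 19.4 and 8.00 at 10 µM, 5.37, 2.00 and 0 at 100 µM and 0.523, 3.14 and 2.54 at 400 µM. It had 0 reads in RB 100 µM replicate 3, which allows up to 1.43 CPM by the limit of 3 reads and covers counting error only. The 40S gene AT5G02960 (RPS23, at the decoding centre) read 9.69, 21.8 and 13.5 CPM in the untreated libraries, 153, 31.5 and 20.3 at 10 µM, 20.03, 2.50 and 5.25 at 100 µM and 8.36, 12.6 and 8.47 at 400 µM, again highest in RB 10 µM replicate 1.

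The libraries in which the 9 genes were highest were nearly always the same. Within the 10 µM dose replicate 1 was the highest for 9 of 9, within 100 µM replicate 1 for 9 of 9, within 0 µM replicate 2 for 8 of 9 and within 400 µM replicate 2 for 8 of 9. For the other 40 members with at least 10 CPM these libraries were the highest for 10, 10, 13 and 13 genes, and for all 6904 genes in 33.2%, 26.6%, 30.0% and 31.5%. The 9 genes were picked for their spread, and these backgrounds were not. Among all 6904 genes, 152, 343, 46 and 97 lay over 2-fold above the other libraries of the dose in these 4 libraries. Over 2-fold below lay 38, 55, 11 and 61, so that such high values were not particular to ribosomal protein genes. The summed level of the 9 genes was 247 to 424 CPM in untreated libraries, 416 to 1581 CPM at 10 µM, 56.1 to 424 CPM at 100 µM and 123 to 351 CPM at 400 µM. In 7 of these 9 promoters the telo-box and site II were both present, and in 13 of the 40 steady ones. Among the 7 are PGY2 and AT1G33120, whose promoters share a run of 272 bases and are not independent. AT2G37600, also among them, reached 10 CPM only through RB 10 µM replicate 1.

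Likeness to PGY2 was measured as the Pearson correlation of deviations of log2 CPM from the dose means over the 12 libraries. All genes of a library share its depth and any handling, so that this correlation is a description. The 5 closest genes of the whole table were SMAP1 (r = 0.993), AT5G65660 (0.985), CIB22 (0.980), RPL5B (0.978) and ALDH11A3 (0.976), of which only RPL5B encodes a ribosomal protein. SMAP1 read 4.44, 10.1 and 4.78 CPM in the untreated libraries, 66.6, 16.3 and 9.84 at 10 µM, 10.02, 0.501 and 0.954 at 100 µM and 1.57, 14.7 and 3.81 at 400 µM. Its mean passed the limit of 10 CPM only through its 66.6 CPM in RB 10 µM replicate 1. The median r with PGY2 was 0.70 over the other 14 members between 10 and 100 CPM, of which 1 was below 0. Over the 34 members of at least 100 CPM it was −0.46 with 24 below 0, and over the other 6903 genes −0.14. The other 10 of these 34 were above 0, with the highest r in RPL23AA (0.960), RPS6 (0.920) and RP1 (0.823).

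Against untreated seedlings few ribosomal protein genes were called. With edgeR's quasi-likelihood test and Benjamini-Hochberg adjustment over all 13307 genes, 2 of 57 members were called at 10 µM (3.51%, against 3.73% of all genes), 2 at 100 µM (against 11.5%) and 2 at 400 µM (against 15.5%), all of them higher than untreated (2.66%, 7.32% and 9.11% of all genes were called higher). Called lower were 0 members at each dose, beside 1.07%, 4.22% and 6.43% of all genes. At an unadjusted p below 0.05, 9, 6 and 9 members were higher and 0, 4 and 1 lower at the 3 doses. In either direction these were 9, 10 and 10 of 57, beside 1928, 3091 and 3513 of all 13307 genes. DESeq2 called 0, 3 and 3 members higher and 0 lower, beside 3.93%, 11.1% and 14.2% of all genes in either direction. The comparisons share their untreated libraries.

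**Figure D3:**
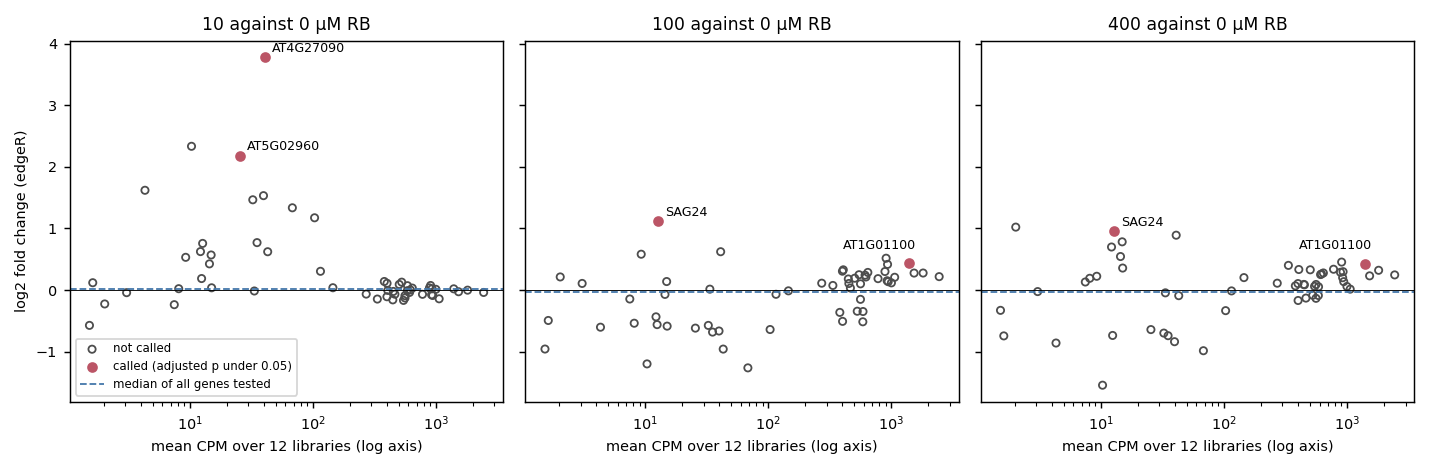
Log2 fold change of each ribosomal protein gene against 0 µM (y axis) by mean CPM (x axis, log scale), 1 panel per dose, with genes called by edgeR at an adjusted p below 0.05 marked and named. Most abundant genes lie close to 0, and the genes between 10 and 100 CPM lie mainly above 0 at 10 µM and mainly below 0 at 100 µM.

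At 10 µM the called genes were AT4G27090 and AT5G02960, which were higher by 3.78 ± 0.86 (SE) and 2.18 ± 0.60 on the log2 scale, with edgeR adjusted p of 0.0135 and 0.0484. In AT4G27090 the 3 treated libraries lay above the 3 untreated ones, and in AT5G02960 replicate 3, at 20.3 CPM, lay below an untreated library at 21.8 CPM. Without RB 10 µM replicate 1 the log2 difference of AT4G27090 was 0.69 and 0 of 57 members were called (2.67% of all genes). The call of AT4G27090 was lost in 6 of the 18 alternatives that gave it an adjusted p (DESeq2 gave none), which included leaving out any 1 of the untreated libraries, with adjusted p from 0.000822 to 0.381, and that of AT5G02960 in 14 of 19, with adjusted p from 0.00948 to 0.590. The 3 libraries at 10 µM all lay above the untreated ones for 7 of 57 members (12.3%, against 10.4% of all genes).

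At 100 and 400 µM the called genes were AT1G01100 and SAG24. AT1G01100 encodes RPP1, an acidic protein of the stalk through which elongation factors reach the ribosome, and it read 1201, 1215 and 1149.7 CPM in the untreated libraries, 955, 1465 and 1192 at 10 µM, 1417, 1733 and 1685 at 100 µM and 1633, 1619 and 1543 at 400 µM. All libraries at 100 and 400 µM lay above all untreated ones, by 0.44 ± 0.14 (SE) on the log2 scale at 100 µM (edgeR adjusted p = 0.0493) and by 0.43 ± 0.14 at 400 µM (adjusted p = 0.0452). The calls were lost in 10 and 8 of 19 alternatives, among them library totals without scaling and leaving out any 1 of the untreated libraries, with adjusted p from 0.00589 to 0.184 at 100 µM and from 0.00307 to 0.122 at 400 µM.

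SAG24 is an RPL10 gene named for its rise in senescing leaves, and RPL10 joins the 60S subunit late in its assembly. It read 7.27, 8.86 and 6.08 CPM in the untreated libraries, 15.8, 10.5 and 11.7 at 10 µM, 15.02, 13.02 and 20.996 at 100 µM and 10.5, 18.3 and 14.8 at 400 µM. Every treated library was above every untreated one. The log2 difference was 1.12 ± 0.29 (SE) at 100 µM (edgeR adjusted p = 0.0155) and 0.95 ± 0.30 at 400 µM (adjusted p = 0.0362), and 0.76 at 10 µM, where it was not called (adjusted p = 0.213). The calls were lost in 3 and 8 of 19 alternatives, both times without untreated replicate 1 or replicate 3, with adjusted p from 0.00895 to 0.0856 at 100 µM and from 0.0195 to 0.157 at 400 µM. SAC52, its abundant paralog, had log2 differences of −0.07, 0.03 and −0.13 at the 3 doses, with adjusted p from 0.568 to 0.910.

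**Figure D4:**
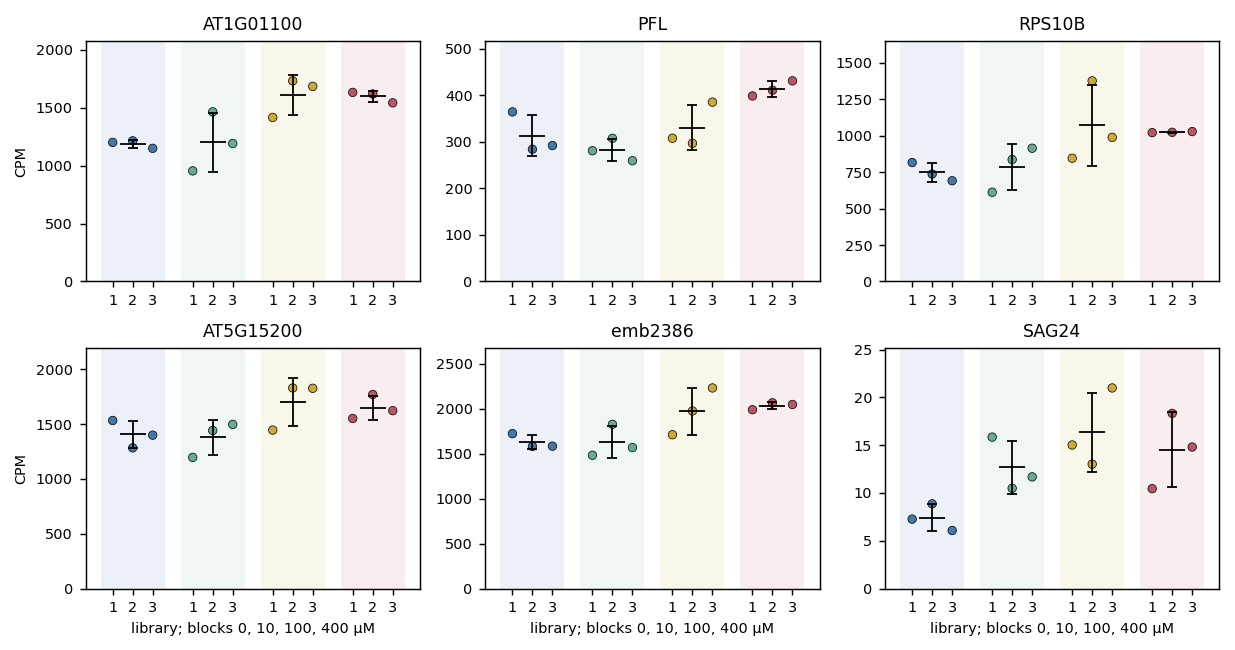
CPM of 6 ribosomal protein genes in each library (y axis from 0, x axis the 3 replicates of each dose in shaded blocks), with bars for the mean ± SD of a dose (n = 3). All libraries at 400 µM lie above all untreated ones in each of the 6 genes, most narrowly in AT5G15200, with 1550.3 CPM against 1532 CPM, and with library totals this does not hold in PFL and AT5G15200.

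With TMM factors the abundant members lay slightly above untreated seedlings at 400 µM, which did not hold with library totals. The 3 libraries at 400 µM were above all 3 untreated libraries in 19 of 57 members (33.3%, against 17.4% of all genes) and in 16 of the 34 with at least 100 CPM (47.1%, against 33.7% of 1711 genes of that level). At 10 µM this held for 1 of the 34 (14.3% of genes of that level). At 100 µM it held for 9 of 57 members (14% of all genes) and 8 of the 34 (29.7%). With library totals in place of TMM it held at 400 µM for 7 of 57 members (12.3%, against 13.6% of all genes) and for 4 of the 34 (11.8%, against 26.5% of genes of that level), counts that were added after the data had been seen. The PFL gene (RPS18, in the head of the 40S subunit, whose mutant has pointed first leaves) read 365, 284 and 292 CPM in the untreated libraries, 281, 308 and 259.6 at 10 µM, 308, 297 and 386 at 100 µM and 399, 411 and 431 at 400 µM. Its log2 difference at 400 µM was 0.40 ± 0.14 (SE), with an edgeR adjusted p of 0.0563, and it was called in the test of the 3 doses together. Its minor paralog RPS18C had log2 differences of 0.04, −0.59 and 0.36 at the 3 doses, none of them called. RPS10B, a 40S head protein, was higher by 0.45 ± 0.17 at 400 µM without being called (adjusted p = 0.0778), and emb2386 by 0.32 ± 0.12 (adjusted p = 0.0969).

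The median log2 difference over the 57 members was 0.02, 0.10 and 0.10 at 10, 100 and 400 µM, and over all genes 0.02, −0.04 and −0.04. Under library totals the medians of the members were 0.07, −0.02 and −0.01 and those of all genes 0.07, −0.15 and −0.15, so that members stood 0.14 above all genes at 400 µM under both scalings while the sign of their own median turned. Abundance separated the members. Those of at least 100 CPM had medians of −0.01, 0.16 and 0.12 (−0.06, 0.09 and 0.08 over all genes of that level), with 27 of 34 above 0 at 400 µM, which fell to 17 of 34 under library totals. The 15 between 10 and 100 CPM had medians of 0.76, −0.57 and −0.09, where all genes of that level had medians between −0.03 and −0.00. AT2G37600 entered this class only through its level in RB 10 µM replicate 1. The 40S and 60S members had medians of 0.05 and 0.00 at 10 µM, 0.00 and 0.11 at 100 µM and 0.23 and 0.09 at 400 µM.

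Tested over the 3 doses together, 9 of 57 members were called (15.8%, against 14.6% of all genes). They were AT2G37600 (edgeR adjusted p = 0.00139), AT5G02960 (0.00284), AT4G27090 (0.00343), RPL5B (0.00361), PGY2 (0.0114), AT5G35530 (0.0164), AT1G33120 (0.0345), AT1G01100 (0.0359) and PFL (0.0416). The calls of AT2G37600 and RPL5B held in all 18 alternatives, that of AT5G02960 was lost in 1, those of PGY2 and AT5G35530 in 2, that of AT4G27090 in 2 of the 17 that gave it an adjusted p, that of AT1G33120 in 8, and those of AT1G01100 and PFL in 10. In 7 of these 9 genes, all but AT1G01100 and PFL, the highest dose mean was at 10 µM and the highest library was RB 10 µM replicate 1. Without that library AT2G37600, RPL5B and AT1G01100 kept their call and the other 6 did not, and 4 of 57 members were called (13.5% of all genes).

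Between 10 and 100 µM, 6 of 57 members were called lower and 0 higher (10.5% in either direction, against 4.47% of all genes, made up of 1.5% lower and 2.98% higher). DESeq2 called 6 lower and 0 higher, beside 4.77% of all genes in either direction. These were 4 of the 6 called by edgeR and, in place of PGY2 (adjusted p = 0.0554) and AT4G27090 (no adjusted p), the abundant members RP1 and RPS6. At an unadjusted p below 0.05, 11 members were higher and 16 lower, beside 2689 of all 13307 genes in either direction. The log2 differences of the 6 called by edgeR were −3.53 in AT2G37600, −3.16 in AT4G27090, −2.80 in AT5G02960, −2.60 in PGY2, −2.22 in AT5G35530 and −2.04 in RPL5B, with adjusted p from 0.0120 to 0.0469. All of them are among the members with a mean below 100 CPM. AT5G35530 is an RPS3 gene, whose protein lies at the mRNA entry of the 40S subunit, and it read 4.04, 2.53 and 3.47 CPM in the untreated libraries, 21.1, 5.77 and 3.08 at 10 µM, 2.50, 1.00 and 2.86 at 100 µM and 2.09, 2.62 and 0.847 at 400 µM. Its abundant paralog AT2G31610 had a log2 difference of 0.30 at 10 µM (adjusted p = 0.565). Without RB 10 µM replicate 1, 0 of 57 members were called (2.36% of all genes), and none of the 6 was called without replicate 2 or replicate 3 of 100 µM. Between 100 and 400 µM edgeR and DESeq2 called 0 of 57 members (against 0.0451% and 0.211% of all genes). At an unadjusted p below 0.05, 7 were higher and 0 lower, beside 1050 of all 13307 genes in either direction.

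The count at 100 µM depended on RB 100 µM replicate 1. Without that library 16 of 57 members were called against untreated, 5 higher and 11 lower, beside 15.3% of all genes. The log2 difference of PGY2 was then −2.98 (edgeR adjusted p = 0.00298), that of AT1G33120 −3.02, of AT4G14320 −3.61, of AT2G44120 −2.83, of RPL23AA −2.34 and of RPL5B −1.79, all of them called lower. The log2 difference of RPS6, a 40S protein phosphorylated downstream of the TOR kinase, was −0.86 (adjusted p = 0.000634), and that of RP1 (RPL3, beside the peptidyl transferase centre) −0.53. Higher were P40 (RPSA, 0.57), AT5G02870 (RPL4, 0.47) and RPS10B (0.66), beside AT1G01100 and SAG24. Between 10 and 100 µM 23 members were then called (11.5% of all genes), and over the 3 doses together 24 (20.9%). These differences rest on 2 libraries at 100 µM, which were the low ones in the 9 variable genes. With replicate 1 of 10 µM and replicate 2 of 400 µM left out as well, 22 of 57 members were called at 100 µM (8 higher and 14 lower) and 8 at 400 µM (3 higher and 5 lower), beside 18.2% and 17.4% of all genes. The counts were then 14 between 10 and 100 µM (9.17% of all genes) and 19 over the 3 doses together (19.7%). The 3 libraries left out were the highest of their dose for 9 (10 µM), 9 (100 µM) and 8 (400 µM) of the 9 variable genes. Lower calls of such genes without these libraries therefore follow in part from the choice of libraries.

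Paralogs were compared by the share of the reads of a pair that fell to 1 gene, which the scaling of a library does not change. An exact permutation test over the 12 libraries in 4 dose groups gave p below 0.05 in 4 of 21 pairs, and 2 remained after Benjamini-Hochberg adjustment over the pairs. In the RPL7a pair, 60S proteins, AT2G47610 (chr2:19529743-19531677) took 41.4, 42.03 and 43.5% in the untreated libraries, 54.6, 43.9 and 44.2 at 10 µM, 41.3, 21.6 and 33.04 at 100 µM and 43.2, 41.5 and 42.7 at 400 µM of the reads it shared with AT3G62870. Its share was lowest in RB 100 µM replicates 2 and 3 and highest in RB 10 µM replicate 1, and the other 9 libraries lay between 41.3% and 44.2% (exact permutation p = 0.000714, adjusted p = 0.015).

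In the RPS9 pair the minor gene AT5G39850 (chr5:15949910-15951475) took 1.12, 1.05 and 0.923% in the untreated libraries, 1.16, 1.15 and 1.30 at 10 µM, 0.811, 0.545 and 0.416 at 100 µM and 0.303, 0.501 and 0.751 at 400 µM of the reads it shared with AT5G15200. All 6 libraries at 100 and 400 µM were below all 6 at 0 and 10 µM (exact permutation p = 0.00344, adjusted p = 0.0361). AT5G39850 itself read 17.4, 13.6 and 13.02 CPM in the untreated libraries, 14.1, 16.8 and 19.7 at 10 µM, 11.8, 10.02 and 7.64 at 100 µM and 4.70, 8.90 and 12.3 at 400 µM, with a log2 difference of −0.74 ± 0.31 (SE) at 400 µM that was not called by edgeR (adjusted p = 0.125). Without the 3 libraries left out above the adjusted p of both pairs was 0.0867 by the exact permutation test.

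**Figure D5:**
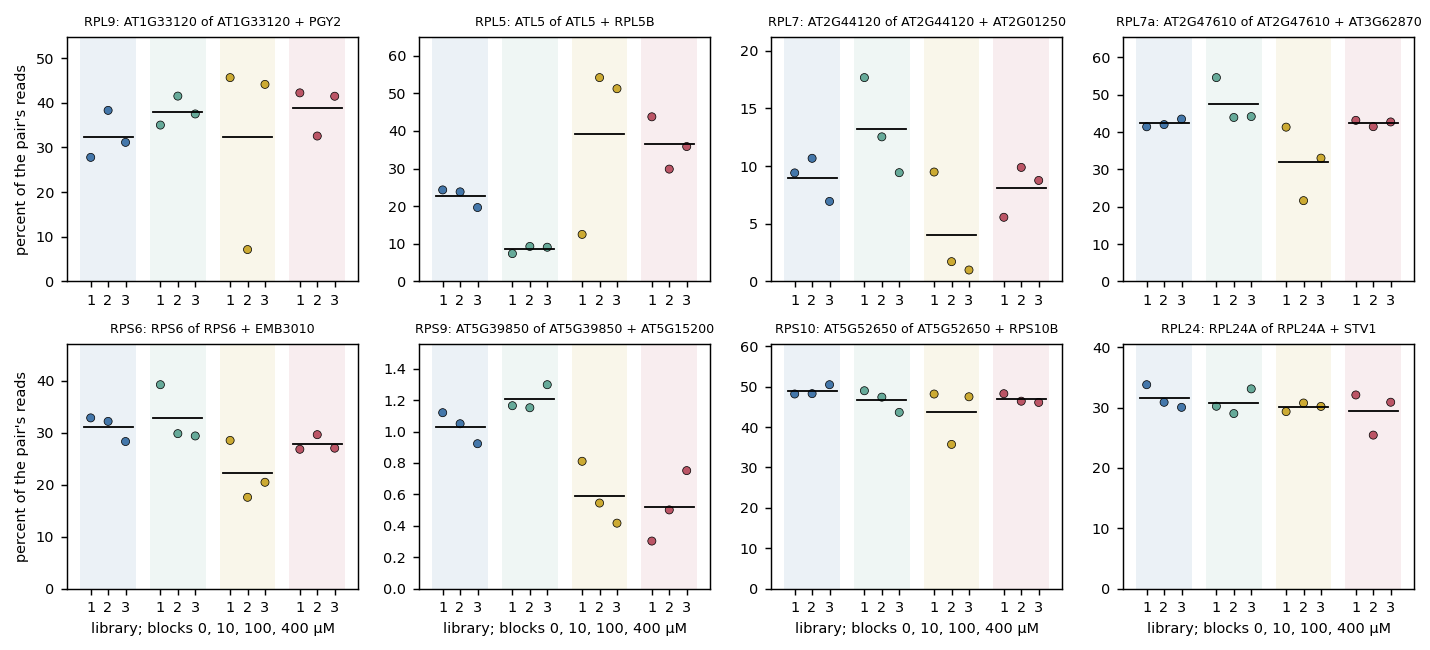
Share of the reads of a paralog pair, in percent, that fell to the gene named in each panel (y axis) in each library (x axis, the 3 replicates of each dose in shaded blocks), for 8 families, with a line at the mean of a dose. The RPS9 share is lower at 100 and 400 µM in every library, the RPL5 share varies from 7.40% to 54.2%, and the RPL24 share stays between 25.4% and 33.8%.

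RPL5 carries the 5S rRNA into the 60S subunit, and its paralogs differed in their spread. ATL5 read 7.27, 11.1 and 4.78 CPM in the untreated libraries, 8.81, 6.30 and 4.31 at 10 µM, 5.01, 6.51 and 10.02 at 100 µM and 7.32, 10.5 and 8.04 at 400 µM, so that its libraries of different doses overlapped. RPL5B read 22.6, 35.5 and 19.5 CPM in the untreated libraries, 110.2, 61.4 and 43.1 at 10 µM, 35.1, 5.51 and 9.54 at 100 µM and 9.41, 24.6 and 14.4 at 400 µM, and its lowest libraries were RB 100 µM replicates 2 and 3 and RB 400 µM replicate 1. ATL5 held 19.6% to 24.3% of the pair in untreated libraries, 7.40% to 9.30% at 10 µM, 12.5%, 54.2% and 51.2% at 100 µM and 29.9% to 43.8% at 400 µM. The shares at 0, 10 and 400 µM did not overlap, and at 100 µM replicate 1 lay between the 10 µM and the untreated shares while replicates 2 and 3 lay above all other libraries. These shares rest on few reads, since 1 read was 0.501 and 0.477 CPM in RB 100 µM replicates 2 and 3. Their counting error was not estimated. The adjusted p was 0.189 by the exact permutation test with all libraries and 0.00273 without RB 100 µM replicate 1. Within its dose that library was the highest for RPL5B, so that the lower value follows in part from the choice of library. Over all single libraries left out, the adjusted p reached 0.403.

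In the RPS6 pair and the RPL7 pair the adjusted p was also 0.189 by the exact permutation test, and 0.0346 and 0.0317 without RB 100 µM replicate 1. Within its dose that library was the highest for RPS6 and AT2G44120, so that the lower values follow in part from the choice of library. Over all single libraries left out, the adjusted p reached 0.430 in both pairs. The RPL10 pair of SAG24 and SAC52 also had an adjusted p of 0.189 by the exact permutation test with all libraries. The RPL8 pair had a lower one (exact permutation p = 0.0161, adjusted p = 0.113). There AT4G36130 held 9.79% to 10.7% at 100 µM and 10.99% to 13.8% in the other libraries of the reads it shared with EMB2296. Without single libraries the adjusted p of the RPL8 pair ranged from 0.0805 to 0.341 by the exact permutation test. RPS6 read 456, 472 and 387 CPM in the untreated libraries, 528, 474 and 415 at 10 µM, 439, 217 and 266 at 100 µM and 340.3, 436 and 392 at 400 µM, lowest in RB 100 µM replicates 2 and 3. Its paralog EMB3010 read 933, 996 and 982 CPM in the untreated libraries, 819, 1117 and 998 at 10 µM, 1101, 1019 and 1035 at 100 µM and 929.9, 1038 and 1061 at 400 µM, with all libraries at 100 µM above the untreated ones and those at 10 and 400 µM overlapping with them. AT2G01250, the abundant RPL7 gene beside AT2G44120, had log2 differences of −0.02, 0.11 and 0.08 at the 3 doses, none of them called. Both RPS6 and EMB3010 are among the 34 abundant members.

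In the RPL9 pair both genes deviated together. AT1G33120 held 27.8% to 45.6% of the pair in 11 libraries and 7.14% in RB 100 µM replicate 2, where it had 1 read, with an adjusted p of 0.982 by the exact permutation test. The deviations of both genes from their dose means had r = 0.89 over the 12 libraries, a description of genes whose promoters share a long run. It was also 0.84 in the RPL4 pair, 0.77 in RPL8, 0.74 in RPP0 and 0.71 in RPL38, whose promoters share no run longer than 20 bases. In other pairs r went down to −0.49 (RPS21). Shares also stayed in a narrow range in the RPL4 pair (44.0% to 50.8% for AT5G02870) and the RPL24 pair of RPL24A and STV1 (25.4% to 33.8% for RPL24A). In the RPS10 pair AT5G52650 held 35.7% in RB 100 µM replicate 2 and 43.6% to 50.5% in the other libraries.

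Other genes of translation were counted from lists. Of 143 measured cytosolic ribosomal protein genes outside the 57, edgeR called 2 higher and 0 lower at 10 µM, 1 higher and 2 lower at 100 µM and 6 higher and 0 lower at 400 µM, with medians of −0.01, 0.08 and 0.16 on the log2 scale. The smallest p at 400 µM among them belonged to AT5G46430 (0.68 ± 0.16, adjusted p = 0.0049) and AT3G56020 (0.82 ± 0.24, adjusted p = 0.025). Their largest SD within a dose exceeded 1 in 4 of the 105 with at least 10 CPM, beside 3.55% of all genes of that level. Of 13 cytosolic elongation factors edgeR called 0 at each dose, where 0, 3 and 0 had an unadjusted p below 0.05 and DESeq2 called 0, 1 and 0. Of 11 ribosome biogenesis factors edgeR and DESeq2 called 0 at each dose, where 1, 2 and 1 had an unadjusted p below 0.05. Over all genes edgeR called 3.73%, 11.5% and 15.5% at the 3 doses and DESeq2 3.93%, 11.1% and 14.2%. An unadjusted p below 0.05 was found in 1928, 3091 and 3513 of all 13307 genes. NUC-L1, a nucleolin of rRNA synthesis, had a log2 difference of 0.29 ± 0.14 at 400 µM (adjusted p = 0.170). Of 27 nuclear-encoded proteins of the plastid ribosome 1, RPL12-A of its stalk, was lower at all 3 doses, by −0.46, −0.60 and −0.38.

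The remaining members, beyond those named, were without a call at any dose against untreated. Of the 57 genes 33 lay above untreated on the fitted log2 scale at 10 µM, 32 at 100 µM and 37 at 400 µM, beside 52%, 47.4% and 47.3% of all genes. All libraries of a dose lay below all untreated ones in 0 of 57 members at 10 µM (9.7% of all genes), 3 at 100 µM (13.4%) and 1 at 400 µM (17%). The 3 members with the lowest means ranged from 0.358 to 6.29 CPM over the 12 libraries, where a few reads decide a value.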

How the data were processed

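Per the labels and the methods of the study, total RNA of whole seedlings was made into MARS-seq libraries, and the authors trimmed the reads with cutadapt (1.8.3 in the submitters' processing notes, which also name bcl2fastq 2.17.1.14), aligned them to Araport 11 by STAR and obtained gene counts by HTSeq. The deposited counts are raw reads per gene. The deposited signal values are those counts divided by DESeq2 size factors and the log2 values deposited by the authors are regularized, and neither was used. Columns of the authors' own comparisons hold fold changes and p-values and were not used.

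The tests ran in R 4.3.3, with edgeR 4.0.16 (quasi-likelihood test, TMM factors, 12 libraries in 1 fit by dose) and DESeq2 1.42.0 as the alternative. Genes needed 5 reads in at least 1 library, p-values were adjusted by Benjamini-Hochberg over 13307 genes, and an adjusted p below 0.05 was a call. The SD within a dose used log2 CPM with 0.5 CPM added. Paralog shares were tested in Python 3.11.15 by exact permutation of the F statistic over the 4 doses, and the edgeR tests of a dose were two-sided. The fit was tested on simulated data. Named genes were those called, the 6 with the largest SD within a dose, the paralogs of both, the 3 highest and the 3 lowest, of which 1 item is not reported here. The members and lists were chosen with earlier results of these data known. RefSeq names matched 13214 of 13307 identifiers.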

Additional observations from a re-analysis of the deposited data

How the results depend on the processing

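Leaving out 1 library at a time gave 0 to 6 called members at 10 µM, 0 to 16 at 100 µM, 0 to 6 at 400 µM, 0 to 23 between 10 and 100 µM, 0 to 3 between 100 and 400 µM and 4 to 24 over the 3 doses together. In the same order the shares of all genes were 2.36% to 4.81%, 8.43% to 15.3%, 11.8% to 17.0%, 1.70% to 11.5%, 0% to 0.874% and 10.9% to 20.9%. Without replicate 1 of 10 µM, replicate 1 of 100 µM and replicate 2 of 400 µM together the counts were 22 at 100 µM, 8 at 400 µM, 14 between 10 and 100 µM, 3 between 100 and 400 µM and 19 over the 3 doses. The shares of all genes were 18.2%, 17.4%, 9.17%, 0.973% and 19.7%. These are the libraries in which the variable members were highest, so that the counts follow in part from the choice. At 10 µM DESeq2 size factors and library totals each gave 1 called member and DESeq2 gave 0 (3.70%, 3.77% and 3.93% of all genes). At 400 µM library totals gave 0 (16.6% of all genes) and a fit of only the compared groups gave 11 (21.1%). Such a fit gave 0 between 10 and 100 µM (1.01%). A minimum of 2-fold left 1 call at 100 µM and 0 at 400 µM.

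Same-numbered libraries of different doses did not in general deviate together (r from −0.37 to 0.42 with a median of 0.01 over 18 pairs of libraries). The highest r, 0.42, was between RB 10 µM replicate 1 and RB 100 µM replicate 1, in which the variable members were highest. RB 100 µM replicate 1 and RB 400 µM replicate 2, which differ in number, had an r of 0.41. A replicate block gave 1 call at 400 µM, and the other counts under the block stayed within 1.5 times.

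The median log2 differences of the 57 members moved under each alternative by less than the spread between libraries, taken as the root of the summed variances of the library medians of both doses. Their sign nevertheless turned with library totals at 100 µM (−0.02) and 400 µM (−0.01), without untreated replicate 3 at 10 µM (−0.02) and 100 µM (−0.01), without RB 10 µM replicate 2 at 10 µM (−0.07) and without RB 100 µM replicate 3 at 100 µM (−0.03). Among paralog pairs, the adjusted p without single libraries ranged from 0.00614 to 0.202 in RPL7a, from 0.0264 to 0.202 in RPS9, from 0.00273 to 0.403 in RPL5, from 0.0346 to 0.430 in RPS6 and from 0.0317 to 0.430 in RPL7. Without the 3 libraries it was 0.0867 in RPL7a and RPS9 and 0.0167 in RPL5. RPL5B was highest within its dose in each of these 3 libraries, so that the last value follows in part from the choice. The counts of members with all treated libraries above all untreated ones, chosen after seeing the data, were 11 at 10 µM and 21 at 100 µM without the 3 libraries (19.3% and 36.8%, against 14.7% and 21.1% of all genes), and 4 at 100 µM and 7 at 400 µM with library totals (7.02% and 12.3%, against 11% and 13.6% of all genes), and leaving out 1 library gave 7 to 18, 9 to 21 and 20 to 24 at the 3 doses. The cause of these changes was not tested. For single named genes 2437 values stayed on their side of the threshold (log2 differences that were not called also within 1 SE), 123 lost and 85 gained a call, and 46 that were not called moved by more than 1 SE. The sign turned in 0 of 295 log2 differences that were called under either setting, and in 122 of 1965 that were not. With 1499791 to 3608636 reads per library, 1 of the 8 members below 10 CPM, AT5G35530, was called in any comparison.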
